A study of Homo sapiens with 8 samples.

Results

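The comparison described here set all 4 pRB+ libraries against all 4 pRB- libraries of one RNA sequencing experiment, pooled over 2 inhibitor states, so that it took in all 8 of the 8 libraries. The cells were NCI-H82, an established small cell lung cancer line of neuroendocrine origin, carrying a doxycycline-inducible RB1 construct (pTripZ RB1). The pRB+ cells had received doxycycline at 0.5 µg/mL for 96 h and the pRB- cells none, and within each arm 2 libraries came from vehicle (DMSO) and 2 from AZD2811 at 32 nM for the last 48 h. The sample titles call this inhibitor AZD1152, the prodrug of AZD2811, which is an Aurora B kinase inhibitor. All 4 groups carried the construct, and no cells given doxycycline without RB1 were analysed here, so doxycycline and pRB cannot be told apart. Libraries are named below by arm, inhibitor state and replicate, for example pRB+ vehicle 1. The arms were compared with the inhibitor as an additive term, over the genes whose scaled FPKM averaged 1 or more over the 8 libraries. A gene averaging below 1 in 1 arm was therefore tested only through the other arm. FPKM, fragments per kilobase of transcript and per mapped fragments of the library, is a level per length, and it was rescaled between libraries. Values of scaled FPKM given with ± are means and SDs over the 4 libraries of an arm. The replicates are described as biological with no account of separate cultures, so that a p-value reflects how far these libraries vary and no more.

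pRB, the product of RB1, binds E2F transcription factors and holds back the genes that drive entry into S phase, and nearly all small cell lung cancers have lost it. Cells that slow their division are also known to alter lipid supply, ribosome manufacture and differentiation programmes. Cholesterol synthesis is controlled by SREBP-2 (gene SREBF2), a membrane-bound transcription factor that INSIG1 retains in the endoplasmic reticulum when sterols are plentiful, and its target promoters often carry CCAAT boxes, the motif bound by NF-Y. Ribosome assembly factors process and fold the pre-ribosomal RNA in the nucleolus, and many of their promoters carry the E-box CACGTG, a motif bound by MYC with MAX and by several other factors.

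The stretches printed first belong to sterol genes whose mRNA was lower in pRB+ cells. They were chosen among the genes whose promoter window held CCAAT, so they show where it lies and not how common it is. Each is the 250 bases upstream of a RefSeq transcript start on GRCh38.p14, written 5′ to 3′ on the gene's strand, with CCAAT or its reverse complement ATTGG in capitals. MVK is chr12:109573544-109573793 on the plus strand, MSMO1 is chr4:165327419-165327668 on the plus strand, INSIG1 is chr7:155297628-155297877 on the plus strand, and HMGCS1 is chr5:43313413-43313662 on the minus strand.
MVK: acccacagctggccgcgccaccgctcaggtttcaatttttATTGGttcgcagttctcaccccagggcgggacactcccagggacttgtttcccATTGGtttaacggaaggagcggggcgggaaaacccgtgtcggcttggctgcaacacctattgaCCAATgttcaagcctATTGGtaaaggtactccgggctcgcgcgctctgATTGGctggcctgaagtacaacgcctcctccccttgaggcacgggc
MSMO1: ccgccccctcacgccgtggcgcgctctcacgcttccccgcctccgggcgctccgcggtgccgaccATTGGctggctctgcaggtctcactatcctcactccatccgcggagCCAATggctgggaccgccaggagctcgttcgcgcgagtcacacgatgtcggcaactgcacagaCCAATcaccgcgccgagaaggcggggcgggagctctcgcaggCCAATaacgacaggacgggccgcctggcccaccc
INSIG1: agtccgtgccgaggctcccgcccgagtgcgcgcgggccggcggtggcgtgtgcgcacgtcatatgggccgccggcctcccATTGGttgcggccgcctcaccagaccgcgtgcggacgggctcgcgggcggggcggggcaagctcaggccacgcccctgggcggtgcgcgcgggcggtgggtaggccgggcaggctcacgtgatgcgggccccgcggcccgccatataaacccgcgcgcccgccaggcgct
HMGCS1: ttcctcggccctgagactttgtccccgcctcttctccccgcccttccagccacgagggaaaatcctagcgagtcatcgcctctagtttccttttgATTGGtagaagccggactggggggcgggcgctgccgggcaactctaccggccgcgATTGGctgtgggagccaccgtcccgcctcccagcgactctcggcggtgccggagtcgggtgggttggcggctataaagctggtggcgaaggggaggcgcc
MVK carried 5 matches, MSMO1 4, HMGCS1 2 and INSIG1 1. Over windows of 300 bases (250 before to 50 after the start, both strands), CCAAT stood in 12 of the 15 cholesterol synthesis genes that had a window (80.0%) and in 7 of the 9 of them that fell (77.8%). The share was 37.5% over the 8754 tested genes with a window. TCACNCCAC, searched as one form of the sterol regulatory element, stood in 0 of the 15 and in 1.06% of the tested genes. Of the 11 sterol sensing and uptake genes with a window, the list that holds INSIG1, 5 carried CCAAT (45.5%) and 1 carried TCACNCCAC, and of the 3 of them that fell, 3 carried CCAAT and 1 TCACNCCAC. A match is a description of letters and not of binding.

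The second set shows the E-box in genes for ribosome assembly whose mRNA was higher in pRB+ cells. These genes were likewise chosen among those whose promoter window held CACGTG. Each stretch is 30 bases around CACGTG, in capitals, on the gene's strand and the same build. UTP14A is chrX:129905914-129905943 on the plus strand, LTV1 is chr6:143843354-143843383 on the plus strand, SDAD1 is chr4:75991156-75991185 on the minus strand, PNO1 is chr2:68157885-68157914 on the plus strand, and NOP14 is chr4:2963374-2963403 on the minus strand.
UTP14A: accttgggcCACGTGgaaaccaggggccag
LTV1: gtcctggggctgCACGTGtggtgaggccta
SDAD1: tacatgctaacaCACGTGaaaaaatttaca
PNO1: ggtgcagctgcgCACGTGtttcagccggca
NOP14: tccgcggcccggCACGTGtcttagggtagc
CACGTG stood in 20 of the 50 nucleolar assembly genes that had a window (40.0%) and in 11 of the 17 of them that rose (64.7%), against 10.6% of the tested genes with a window. It reads the same on both strands and each motif was counted by itself, whether or not it overlapped another.

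Depth, estimated from the steps in the lowest FPKM of 1523 genes with a single transcript, was 23300000 to 33500000 fragments a library, and the counting error at 1 FPKM in a transcript of 1500 nucleotides was 14.1% to 16.9%. RB1 itself read 7.35 and 7.57 scaled FPKM in pRB+ vehicle, 7.67 and 6.36 in pRB+ AZD2811, 0.872 and 0.800 in pRB- vehicle and 0.942 and 0.949 in pRB- AZD2811 libraries, which fits the labels of all 8. Of 8 neuroendocrine markers, 6 averaged at least 1 scaled FPKM, and the sum of the 8 was 530 to 586 in pRB+ and 516 to 590 in pRB- libraries. UCHL1 made up much of this sum (280 to 326 in pRB+ and 271 to 337 in pRB-). The sum hides opposite differences, as NEUROD1 read 74.8 to 88.4 in pRB+ and 93.5 to 111 in pRB- libraries. CHGA read 64.3 to 71.8 in pRB+ and 41.8 to 55.2 in pRB-. Summed markers of fibroblasts (1.15 to 1.97 in pRB+, 1.17 to 2.10 in pRB-), endothelium (0.0335 to 0.0998 in pRB+, 0.0368 to 0.115 in pRB-) and lung epithelium (0.10 to 0.228 in pRB+, 0.109 to 0.230 in pRB-) were low in every library, with SFTPC and SCGB1A1 at 0. Immune markers summed to 2.87 to 4.04 in pRB+ and 3.02 to 5.19 in pRB- libraries, with LST1 at 0 and CD68 the only one averaging 1 or more. Of the 8 libraries, pRB+ vehicle 2, pRB+ AZD2811 1 and pRB- AZD2811 1 stood apart by their non-polyadenylated RNA: RMRP, the RNA of RNase MRP, read 5797 to 14020 scaled FPKM in them and 21.2 to 165 in the other 5. They fall in both arms, and some of the counts below are also given with the 5 other libraries alone.

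Of 11693 genes tested, 955 (8.17%) rose in pRB+ cells and 1025 (8.77%) fell (limma, Benjamini-Hochberg adjusted p under 0.05), 16.9% in all. The changes were small, with a median absolute log2 difference of 0.33 among the 1980 genes called, and 10 of them reached 1 (4 rose and 6 fell). Log2 differences are on the scale of log2(scaled FPKM + 1), which understates the change of low genes, and are given with their standard error where one follows ±. The sign was the same in vehicle and under AZD2811 for 1961 of the 1980. These genes were called on the same 8 libraries pooled, which favours such agreement, so it is no separate support. No gene passed the test of a pRB effect that differed between the inhibitor states (limma, 0.0% called), with 64 genes below 0.05 before adjustment. In 2637 genes (22.6%) the 4 pRB+ and 4 pRB- libraries did not overlap, and 1693 of these were also called.

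Counts of calls depended on single libraries. They were 571 without pRB+ vehicle 1, 655 without pRB+ AZD2811 1, 479 without pRB- vehicle 1 and 1084 without pRB- vehicle 2, and 1488 to 2620 without any 1 of the other 4. Over the 94 counts of at least 2 calls in 1 direction that the 78 gene lists gave, 85 moved by more than 1.5 times without pRB+ vehicle 1, 83 without pRB+ AZD2811 1, 88 without pRB- vehicle 1 and 65 without pRB- vehicle 2, and 11 to 29 without any 1 of the other 4. Counts for which no such values are given below come under the same limit. Each list count is to be read beside the 8.17% of all genes that rose and the 8.77% that fell. Of 305 genes followed one by one, 105 passed in all 8 of the fits with 1 library left out, and this is stated below for part of the genes named. Tested alone, the vehicle libraries gave 673 calls and the AZD2811 libraries 1, and without rescaling the FPKM the 8 libraries gave 5. RNA was taken from bulk cultures, so fewer cells in a given state and less RNA per cell cannot be told apart.

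**Figure D1:**
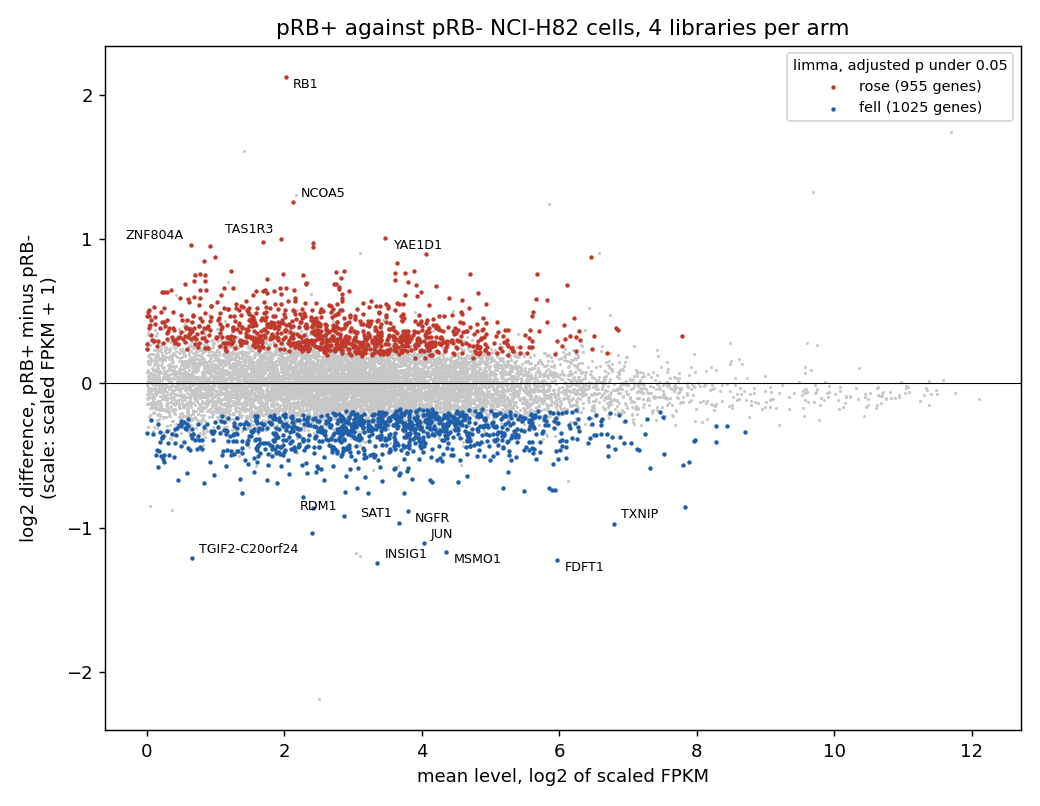
Log2 difference of pRB+ minus pRB- (y axis, on the log2(scaled FPKM + 1) scale) against the mean log2 level (x axis) for the 11693 genes tested, with genes that rose or fell in colour. The 10 genes with a difference of at least 1 in size include RB1 at the top and INSIG1 and FDFT1 at the bottom.

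**Figure D2:**
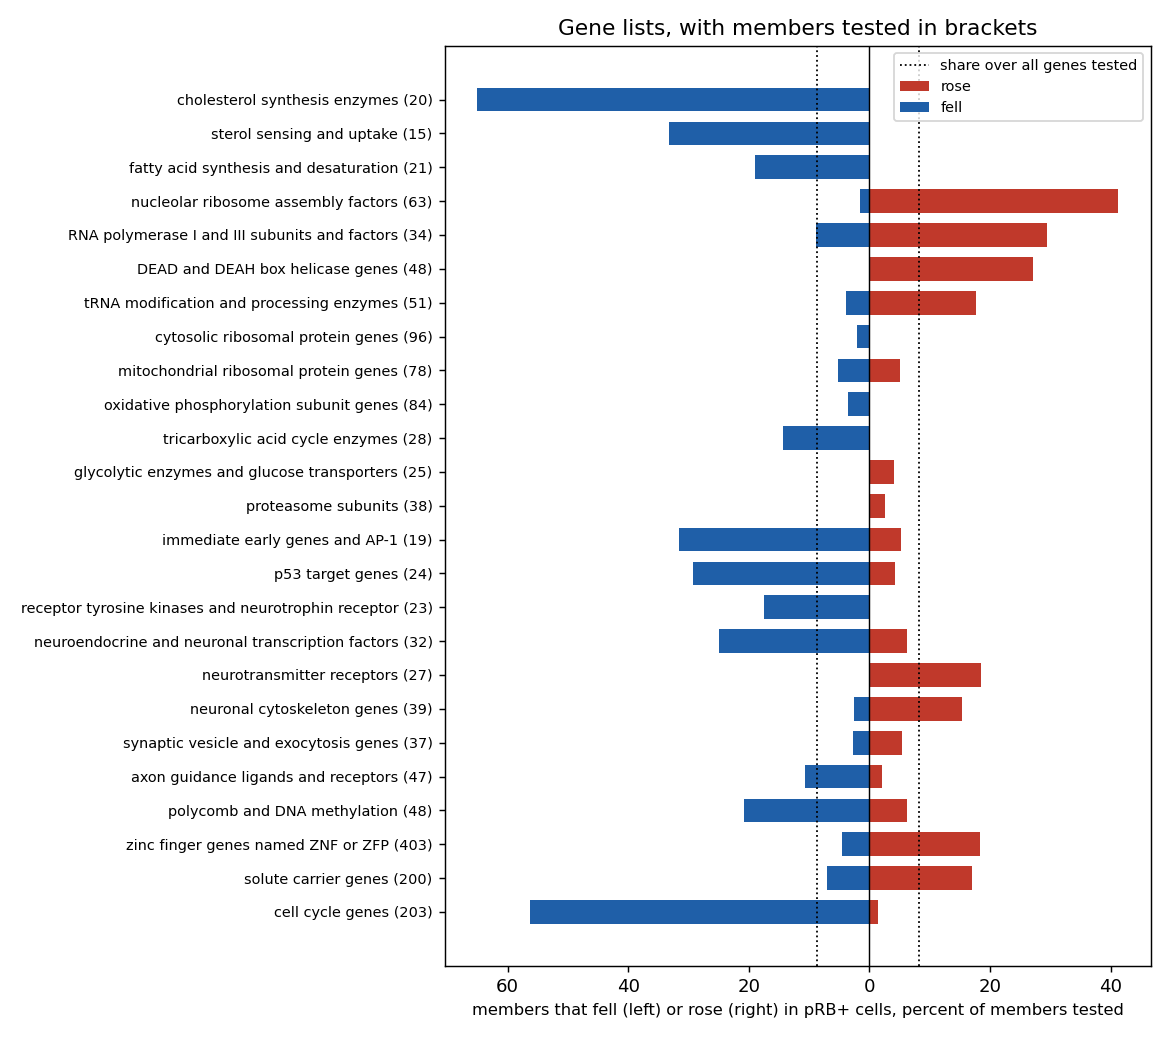
Share of the tested members of 25 gene lists that fell (bars to the left) or rose (bars to the right) in pRB+ cells, in percent, with dotted lines at the shares over all tested genes (8.77% fell, 8.17% rose). Cholesterol synthesis enzymes reach farthest left, with 13 of 20, and nucleolar ribosome assembly factors reach farthest right, with 26 of 63.

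Cholesterol synthesis enzymes were lower in pRB+ cells, where 13 of 20 tested fell and none rose, against 8.77% of all genes falling. The median log2 difference of the 20 was -0.32, against -0.01 over all genes tested, and 19 of the 20 were below 0. FDFT1, squalene synthase, the first enzyme committed to sterols, read 27.9 and 50.3 scaled FPKM in pRB+ vehicle, 25.5 and 48.6 in pRB+ AZD2811, 114 and 90.3 in pRB- vehicle and 75.5 and 71.0 in pRB- AZD2811 libraries. Every pRB+ library lay below every pRB- library, and the 2 lowest were the replicate 1 libraries of the pRB+ arm. The log2 difference of FDFT1 was -1.22 ± 0.21 (adjusted p = 0.00877). MSMO1, which removes methyl groups from lanosterol derivatives, read 9.61, 14.6, 9.08 and 15 scaled FPKM in the pRB+ libraries (vehicle 1, vehicle 2, AZD2811 1, AZD2811 2), against 42.6, 29.4, 23.4 and 20.1 in the pRB- libraries in the same order, which is kept wherever 4 values of an arm are given, a log2 difference of -1.17 ± 0.20 (adjusted p = 0.00825). The arms again did not overlap, with the highest value in pRB- vehicle 1.

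HMGCS1, which makes HMG-CoA, averaged 5.22 ± 0.82 in pRB+ and 9.58 ± 2.15 in pRB- libraries (SD, n = 4 each; log2 difference -0.75 ± 0.13, adjusted p = 0.00884). MVK, mevalonate kinase, averaged 5.94 ± 0.41 in pRB+ and 9.52 ± 1.37 in pRB- libraries (-0.59 ± 0.09, adjusted p = 0.00676). Falls of the isoprenoid step IDI1 (-0.62) and of squalene epoxidase, SQLE (-0.46), were larger than those of MVD (-0.36), FDPS (-0.33), DHCR7 (-0.32), CYP51A1 (-0.26) and EBP (-0.23) on the log2 scale. The thiolase ACAT2 fell by 0.39. Among the 7 that did not pass, LSS averaged 11.3 ± 0.59 in pRB+ and 11.3 ± 0.63 in pRB- libraries and NSDHL 13.1 ± 0.92 in pRB+ and 13.2 ± 1.00 in pRB-.

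Sterol sensing and uptake genes fell in 5 of 15 tested and none rose. INSIG1 read 4.16, 7.20, 3.61 and 7.75 scaled FPKM in pRB+ libraries (vehicle 1, vehicle 2, AZD2811 1, AZD2811 2), against 20.7, 16.2, 11.3 and 10.8 in pRB- libraries, without overlap, and its log2 difference of -1.25 ± 0.22 (adjusted p = 0.00884) was the largest fall of any gene called. Its pRB+ replicate 1 libraries were again the lowest. STARD4, a sterol carrier, averaged 4.45 ± 1.57 in pRB+ and 7.46 ± 1.27 in pRB- libraries (-0.67 ± 0.18). SREBF2 averaged 30.7 ± 5.28 in pRB+ and 41.6 ± 1.90 in pRB- libraries (-0.44 ± 0.11, adjusted p = 0.0222). SREBF1, which codes for the factor that favours fatty acid genes, averaged 7.11 ± 0.45 in pRB+ and 7.44 ± 0.33 in pRB- libraries and did not pass, and neither did SCAP (19.7 ± 0.73 in pRB+ and 19.5 ± 0.52 in pRB-).

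The 18 sterol genes that fell were ordered alike across libraries. In 17 of them both pRB+ replicate 1 libraries were below both pRB+ replicate 2 libraries, pRB+ AZD2811 1 was the lowest of the arm in 15, and pRB- vehicle 1 was the highest of its arm in 16. In 16 of the 18 the difference was larger in vehicle than under AZD2811, a difference that passed the test in none. RB1 read 7.35 and 7.57 scaled FPKM in pRB+ vehicle 1 and 2, and 7.67 and 6.36 in pRB+ AZD2811 1 and 2. Whether the level of RB1 is related to this order was not tested. The 13 calls among cholesterol enzymes became 7 without pRB+ vehicle 1, 8 without pRB+ vehicle 2, 7 without pRB+ AZD2811 1, 6 without pRB- vehicle 1 and 2 in the 5 libraries low in non-polyadenylated RNA, while the median log2 difference ranged from -0.39 to -0.27 with 1 library left out. The 5 calls among sensing and uptake genes became 2 without pRB+ vehicle 1, pRB+ AZD2811 1, pRB- vehicle 1 or pRB- vehicle 2. FDFT1, MSMO1, HMGCS1, MVK and INSIG1 passed in all 8 fits with 1 library left out, SREBF2 in 4 and STARD4 in 3.

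**Figure D3:**
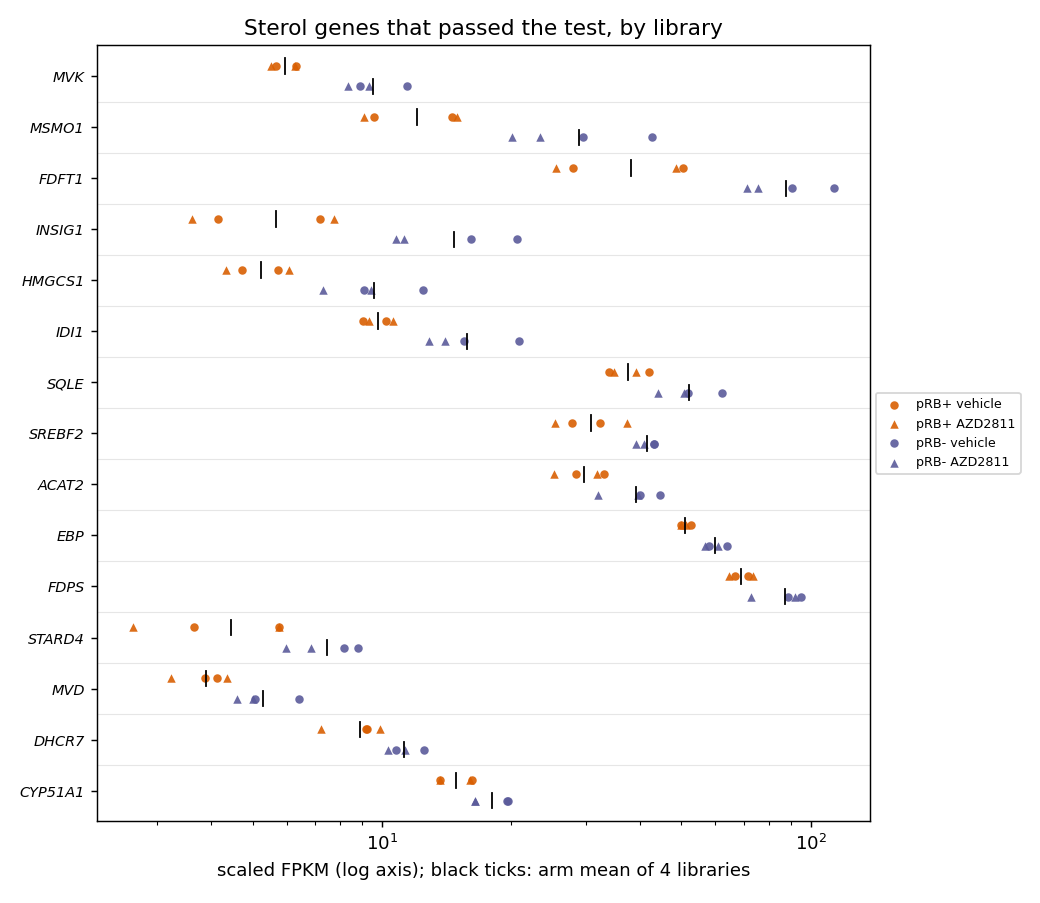
Scaled FPKM (log axis) of 15 of the 18 sterol genes that fell, in each of the 8 libraries, with pRB+ libraries in orange and pRB- libraries in purple, circles for vehicle, triangles for AZD2811 and black ticks for the arm means. Orange lies below purple without overlap in 13 of the 15 drawn, the exceptions being ACAT2 and FDPS.

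Other lipid lists moved less. Fatty acid synthesis and desaturation genes fell in 4 of 21 tested (ELOVL5, ACSL3, MID1IP1 and FADS1, by 0.22 to 0.29 on the log2 scale), while FASN, fatty acid synthase, averaged 43.1 ± 3.04 in pRB+ and 46.3 ± 1.80 in pRB- libraries and SCD, the stearoyl-CoA desaturase, 41.4 ± 3.55 in pRB+ and 48.5 ± 3.77 in pRB-, neither passing. The fatty acid count was 0 without pRB+ vehicle 1, pRB+ AZD2811 1 or pRB- vehicle 1 and 2 without pRB- AZD2811 1. Membrane phospholipid genes went both ways, with 5 of 23 rising and 3 falling. PTDSS1 and PTDSS2, the phosphatidylserine synthases, rose by 0.31 ± 0.07 and 0.29 ± 0.05, PCYT2 of the ethanolamine branch rose by 0.35 ± 0.08, and AGPAT2, an acyltransferase of phosphatidic acid synthesis, fell by 0.53 ± 0.10. Of 23 sphingolipid genes 5 rose, among them ASAH1, the lysosomal acid ceramidase (24.8 ± 1.45 in pRB+ and 19.5 ± 2.71 in pRB- libraries), and SPHK1, a sphingosine kinase, fell by 0.42. The 5 phospholipid rises became 1 without pRB+ vehicle 1 or pRB- vehicle 1, 2 without pRB+ AZD2811 1 and 3 without pRB- vehicle 2, and the 5 sphingolipid rises became 1 without pRB+ vehicle 1, pRB+ AZD2811 1 or pRB- vehicle 1 and 3 without pRB+ vehicle 2 or pRB- vehicle 2. PTDSS2 and AGPAT2 passed in all 8 fits. APOE, the lipid carrier, was the 1 of 7 liver X receptor targets called, at 52.3 ± 2.16 in pRB+ and 42.1 ± 5.25 in pRB- libraries (0.31 ± 0.07, adjusted p = 0.0174).

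Nucleolar ribosome assembly factors were higher in pRB+ cells, where 26 of 63 tested rose and 1, NOB1, fell, against 8.17% of all genes rising. Their median log2 difference was 0.21 and 54 of the 63 were above 0. UTP14A, a component of the small-subunit processome, read 16.3, 14.0, 17.5 and 14.5 scaled FPKM in pRB+ libraries (vehicle 1, vehicle 2, AZD2811 1, AZD2811 2), against 7.29, 8.65, 9.64 and 9.53 in pRB- libraries. The arms were well apart, and the log2 difference was 0.76 ± 0.08 (adjusted p = 0.00613). LTV1, which takes part in the late maturation of the small subunit, read 18.6, 16.3, 21.2 and 14.2 in pRB+ against 10.4, 9.51, 11.0 and 10.4 in pRB- libraries (0.70 ± 0.11, adjusted p = 0.00676). NOP58, a core protein of box C/D small nucleolar ribonucleoproteins, read 66.3, 54.8, 64.9 and 56.6 in pRB+ against 35.7, 38.6, 39.8 and 46.9 in pRB- libraries (0.58 ± 0.09, adjusted p = 0.00676). None of the 3 genes overlapped between the arms.

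Rises among the other members of the small-subunit machinery included PNO1 (28.1 ± 2.62 in pRB+ and 19.8 ± 1.87 in pRB- libraries), NOP14 (17.5 ± 1.05 in pRB+ and 14.0 ± 0.40 in pRB-), UTP20 (6.91 ± 0.99 in pRB+ and 4.74 ± 0.66 in pRB-) and MPHOSPH10 (19.2 ± 2.41 in pRB+ and 14.1 ± 0.85 in pRB-). Of the large-subunit side, SDAD1 (15 ± 1.61 in pRB+ and 9.91 ± 1.51 in pRB-), MAK16 (15.2 ± 1.65 in pRB+ and 11.0 ± 1.00 in pRB-), RRS1 (19.5 ± 1.58 in pRB+ and 14.8 ± 1.13 in pRB-) and RPF2 (14.3 ± 0.80 in pRB+ and 11.6 ± 0.61 in pRB-) rose. Abundant nucleolar proteins did not pass. NPM1 averaged 732 ± 45.9 in pRB+ and 762 ± 68.2 in pRB- libraries, FBL 273 ± 21.2 in pRB+ and 296 ± 21.2 in pRB-, NCL 414 ± 16.9 in pRB+ and 367 ± 9.27 in pRB- (adjusted p = 0.0996), and NOP56, the partner of NOP58, 86.9 ± 10.0 in pRB+ and 72.2 ± 6.49 in pRB- (adjusted p = 0.0501). Of the 63 tested, 29 were higher in pRB+ libraries without overlap between the arms, against 11.0% of all genes. This held for 23 of the 26 that rose, but a call on the same libraries favours it. Of all 1980 genes called, 1693 did not overlap. In 22 of the 26 both pRB+ replicate 1 libraries were above both replicate 2 libraries, the mirror of the order seen for the sterol genes. The 26 became 10 without pRB+ vehicle 1 or pRB+ AZD2811 1, 8 without pRB- vehicle 1, 14 without pRB- vehicle 2 and 7 in the 5 libraries low in non-polyadenylated RNA. UTP14A, LTV1, NOP58, SDAD1 and PNO1 passed in all 8 fits with 1 library left out.

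**Figure D4:**
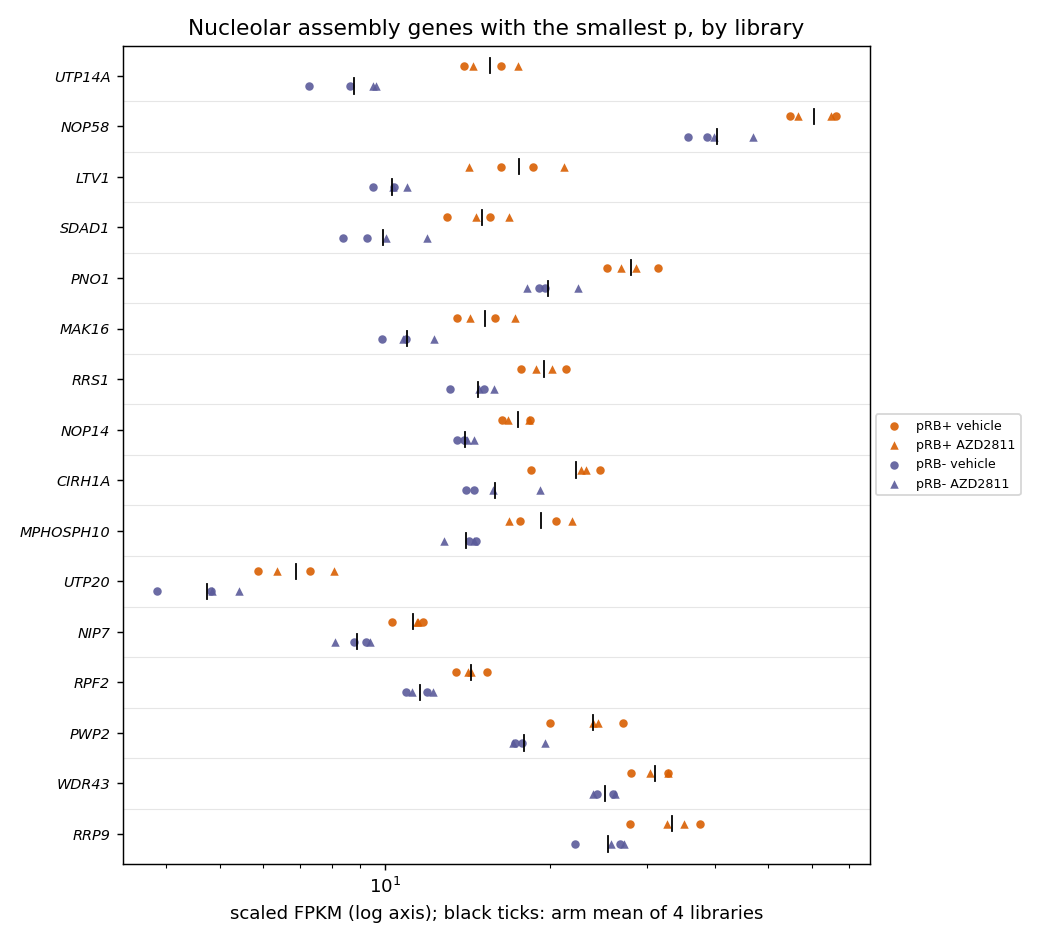
Scaled FPKM (log axis) of the 16 nucleolar ribosome assembly factors that rose with the smallest p, in each of the 8 libraries, with pRB+ in orange, pRB- in purple, circles for vehicle, triangles for AZD2811 and black ticks for the arm means. Orange lies above purple, without overlap except in CIRH1A, where pRB+ vehicle 2 (18.5) lies below pRB- AZD2811 2 (19.2).

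RNA polymerase I and III genes rose in 10 of 34 tested and fell in 3. POLR3C, a polymerase III subunit, averaged 8.85 ± 1.28 in pRB+ and 5.45 ± 1.08 in pRB- libraries (0.62 ± 0.11, adjusted p = 0.00994), and POLR1B, the second largest subunit of polymerase I, 15.2 ± 0.86 in pRB+ and 11.8 ± 0.91 in pRB- (0.34 ± 0.06, adjusted p = 0.0106). POLR1A, POLR1C, CD3EAP and the initiation factor RRN3 rose by 0.26 to 0.39 on the log2 scale. TAF1D fell to 21.0 ± 2.70 in pRB+, against 28.9 ± 4.39 in pRB- libraries, and this gene also hosts small nucleolar RNAs in its introns. The 10 rises became 3 without pRB+ vehicle 1 or pRB+ AZD2811 1, 2 without pRB- vehicle 1, 4 without pRB- vehicle 2, 6 without pRB- AZD2811 1 and 1 in the 5 libraries low in non-polyadenylated RNA. POLR3C and POLR1B passed in all 8 fits with 1 library left out.

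DEAD and DEAH box helicases, RNA-unwinding enzymes that serve ribosome assembly, splicing and transport, rose in 13 of 48 tested and none fell. DDX5 averaged 86.3 ± 8.62 in pRB+ and 62.8 ± 4.44 in pRB- libraries (0.45 ± 0.08, adjusted p = 0.00847) and DHX9 56.9 ± 6.81 in pRB+ and 40.9 ± 4.01 in pRB- (0.46 ± 0.08, adjusted p = 0.00893), and the arms of both did not overlap. Of 51 tRNA modification and processing genes 9 rose and 2 fell. NSUN2, a cytosine methyltransferase of tRNA, averaged 25.5 ± 3.74 in pRB+ and 16.5 ± 1.89 in pRB- libraries (0.59 ± 0.10, adjusted p = 0.00875), and PUS7 (0.39), TRMT6 (0.48) and QTRTD1 (0.46) also rose. YAE1D1, counted in this list, had its largest rise, with 15.9, 12.6, 18.6 and 13.6 scaled FPKM in pRB+ against 5.69, 6.91, 7.27 and 8.17 in pRB- libraries (1.01 ± 0.11, adjusted p = 0.00613). Its yeast relative Yae1 serves the maturation of the ribosome recycling factor Rli1 and is no tRNA enzyme. TRMT11, a tRNA guanosine methyltransferase subunit, fell by 0.38 ± 0.07. The helicase count became 4 without pRB+ vehicle 1, 3 without pRB+ AZD2811 1 or pRB- vehicle 1 and 5 without pRB- vehicle 2. The tRNA count became 4 without pRB+ vehicle 1, 5 without pRB+ AZD2811 1 and 2 without pRB- vehicle 1. DDX5, DHX9, NSUN2, YAE1D1 and TRMT11 passed in all 8 fits with 1 library left out.

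Translation factors as a list did not share this direction, with 2 of 51 rising and 3 falling. EIF4A2, a helicase of translation initiation whose introns host small nucleolar RNAs, read 146, 190, 128 and 187 scaled FPKM in pRB+ libraries against 349, 324, 254 and 250 in pRB- libraries (-0.85 ± 0.13, adjusted p = 0.00676), without overlap. EIF5, which promotes start codon recognition, read 18.8, 14.3, 18.6 and 16.9 in pRB+ against 8.01, 9.84, 8.42 and 13.0 in pRB- libraries (0.76 ± 0.13, adjusted p = 0.00825), also without overlap. Both passed in all 8 fits with 1 library left out. Cytosolic ribosomal protein genes fell in 2 of 96 (RPL39L and RPL22L1, both paralogs of the common subunits), although 86 of the 96 had log2 differences below 0, with a median of -0.08. This median ranged from -0.16 to -0.005 with 1 library left out. The 4 rises and 4 falls among 78 mitochondrial ribosomal protein genes were of at most 0.54 in size. Proteasome genes gave 1 rise in 38 tested, PSME3, the proteasome activator subunit gamma (0.43), and the cytosolic aminoacyl-tRNA synthetases 2 rises and 1 fall in 22.

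Of 19 immediate early and AP-1 genes 6 fell and 1, SRF, rose. JUN, a subunit of AP-1, read 7.67, 11.3, 9.01 and 11.3 scaled FPKM in pRB+ against 30.8, 18.6, 26.7 and 15.4 in pRB- libraries. The arms were apart, with the pRB- replicate 1 libraries highest (-1.11 ± 0.20, adjusted p = 0.0092, passing in all 8 fits with 1 library left out). KLF6, NR4A2, IER5, ATF7 and ZFP36L1 fell by 0.29 to 0.43, and ATF3, a stress-induced repressor, averaged 7.68 ± 2.65 in pRB+ and 11.9 ± 2.68 in pRB- libraries without passing (adjusted p = 0.069). The count of 6 became 1 without pRB+ vehicle 1 or pRB- vehicle 1, 2 without pRB+ AZD2811 1 or pRB- vehicle 2 and 3 without pRB+ vehicle 2 or pRB- AZD2811 1.

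Receptor tyrosine kinases and the neurotrophin receptor fell in 4 of 23 tested and none rose. NGFR, the low-affinity neurotrophin receptor, read 7.59, 13.5, 6.18 and 11.3 scaled FPKM in pRB+ against 22.6, 17.4, 17.6 and 15 in pRB- libraries (-0.89 ± 0.19, adjusted p = 0.0147). EPHA2, an ephrin receptor, averaged 5.27 ± 0.53 in pRB+ and 7.22 ± 0.45 in pRB- libraries (-0.39 ± 0.08, adjusted p = 0.0119), and ERBB3 and MERTK fell by 0.39 and 0.27. The receptor count became 1 without pRB+ vehicle 1 or pRB- vehicle 1 and 2 without pRB+ AZD2811 1, pRB- vehicle 2 or pRB- AZD2811 1. Of 12 MAP kinase phosphatase and ERK feedback genes, DUSP16 and DUSP9 fell. PIK3CA, the catalytic subunit of PI3 kinase, averaged 3.62 ± 0.21 in pRB+ and 4.83 ± 0.11 in pRB- libraries (-0.34 ± 0.06, adjusted p = 0.0101), in a list of 32 with 3 rises and 3 falls. PIM1, a serine and threonine kinase, read 8.39, 11.0, 7.67 and 11.9 in pRB+ against 18.7, 18.7, 15.2 and 15.6 in pRB- libraries, with no overlap (-0.76 ± 0.12, adjusted p = 0.00742). EPHA2, PIK3CA and PIM1 passed in all 8 fits with 1 library left out and NGFR in 6.

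Within the p53 target list 7 of 24 fell and 1 rose. GADD45A, a stress sensor that acts in DNA repair and growth arrest, read 41.8, 51.6, 37.0 and 45.2 scaled FPKM in pRB+ against 97.7, 71.0, 74.6 and 56.4 in pRB- libraries (-0.74 ± 0.13, adjusted p = 0.00847), with the arms apart. CCNG1 (48.4 ± 8.05 in pRB+ and 71.6 ± 10.8 in pRB- libraries), FDXR (3.15 ± 0.24 in pRB+ and 4.35 ± 0.25 in pRB-) and the proapoptotic BBC3 (4.19 ± 1.24 in pRB+ and 6.80 ± 0.66 in pRB-) fell as well. C12orf5, the older symbol of TIGAR, a fructose bisphosphatase, rose to 1.69 ± 0.21 in pRB+ against 0.912 ± 0.13 in pRB- libraries. Its pRB- mean was below the filter of 1, so it was tested only through its pRB+ level. CDKN1A, which codes for p21, averaged 1.09 ± 0.13 in pRB+ and 1.51 ± 0.25 in pRB-, and MDM2 7.07 ± 0.38 in pRB+ and 6.74 ± 0.64 in pRB-, neither passing. The 7 became 4 without pRB+ vehicle 1 and 3 without pRB- vehicle 1, while GADD45A, FDXR and C12orf5 passed in all 8 fits. Among 27 BCL2 family and caspase genes the falls were BBC3, BNIP1 and HTRA2, and none rose. That count of 3 was 0 without pRB+ vehicle 1 or pRB- vehicle 1 and 1 without pRB+ AZD2811 1 or pRB- vehicle 2.

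Metal handling genes rose in 4 of 26 and none fell. TFRC, the transferrin receptor that imports iron, read 72.2, 52.2, 73.3 and 62.0 scaled FPKM in pRB+ against 33.7, 35.8, 38.9 and 43.0 in pRB- libraries (0.76 ± 0.10, adjusted p = 0.00613). Its arms did not overlap, and it passed in all 8 fits with 1 library left out. The zinc transporters SLC39A6 (25.4 ± 2.16 in pRB+ and 19.7 ± 1.40 in pRB- libraries), SLC39A14 (26.2 ± 1.86 in pRB+ and 20.1 ± 2.11 in pRB-) and SLC30A6 (6.26 ± 0.46 in pRB+ and 4.36 ± 0.73 in pRB-) were the other 3, of which SLC30A6 moves zinc out of the cytosol, and the count became 2 without pRB+ vehicle 1 or pRB- vehicle 1. Solute carriers at large rose in 34 of 200 and fell in 14. SLC38A10 had 5.57 ± 0.18 in pRB+ and 3.23 ± 0.66 in pRB- libraries (0.65 ± 0.09, adjusted p = 0.00613), SLC7A6, a cationic amino acid exchanger, 5.51 ± 0.78 in pRB+ and 3.38 ± 0.44 in pRB-, and SLC4A2, an anion exchanger, 30.5 ± 4.43 in pRB+ and 20.9 ± 2.18 in pRB-. SLC38A10, SLC7A6 and SLC4A2 passed in all 8 fits with 1 library left out. SLC12A4, a potassium chloride cotransporter, fell by 0.50 ± 0.09. The 34 became 11 without pRB+ vehicle 1, 12 without pRB+ AZD2811 1, 8 without pRB- vehicle 1, 20 without pRB- vehicle 2 and 7 in the 5 libraries low in non-polyadenylated RNA, and the 14 became 3 without pRB+ vehicle 1 or pRB+ AZD2811 1, 8 without pRB+ vehicle 2, 2 without pRB- vehicle 1 and 6 without pRB- vehicle 2.

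With all 8 libraries, few genes of energy metabolism were called. Of 28 tricarboxylic acid cycle genes 4 fell and none rose, and the count ranged from 2 without pRB- vehicle 1 to 7 without pRB- AZD2811 1 and 8 without pRB+ AZD2811 2. IDH2, the mitochondrial NADP-dependent isocitrate dehydrogenase, read 18.7, 20.1, 16.8 and 22.8 scaled FPKM in pRB+ against 34.5, 31.2, 28.9 and 29.3 in pRB- libraries (-0.64 ± 0.09, adjusted p = 0.00637), with the arms apart. SUCLG2, a succinyl-CoA ligase subunit, averaged 6.40 ± 0.75 in pRB+ and 9.02 ± 1.60 in pRB- libraries (-0.43 ± 0.07), and it and IDH2 passed in all 8 fits with 1 library left out. Oxidative phosphorylation subunits fell in 3 of 84, with a median log2 difference of -0.10 and 68 of the 84 below 0. The 3 became 12 without pRB+ AZD2811 2 and 10 without pRB- AZD2811 1. They became 0 without pRB+ vehicle 1, pRB+ AZD2811 1, pRB- vehicle 1 or pRB- vehicle 2. SLC16A1, a lactate and pyruvate transporter, was the 1 call among 25 glycolytic genes (0.29 ± 0.07), and none of 16 hypoxia genes was called by limma, with 3 of them below 0.05 before adjustment. SAT1, which acetylates polyamines for their export, read 5.42, 11.8, 7.60 and 8.86 in pRB+ against 21.2, 16.5, 18.0 and 12.6 in pRB- libraries (-0.96 ± 0.20, adjusted p = 0.013), and passed in 7 of the 8 fits with 1 library left out. TXNIP, a thioredoxin inhibitor, read 55.7, 114, 48.1 and 90.9 in pRB+ against 128, 180, 133 and 138 in pRB- libraries (-0.97 ± 0.23, adjusted p = 0.0222), and passed in 4 of the 8.

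Neuroendocrine and neuronal transcription factors fell in 8 of 32 tested and rose in 2, with a median log2 difference of -0.16. NEUROD4, a proneural basic helix-loop-helix factor, read 5.05, 7.57, 4.81 and 6.94 scaled FPKM in pRB+ against 10.5, 12.1, 10.1 and 9.71 in pRB- libraries (-0.73 ± 0.12, adjusted p = 0.00825). NEUROD1, the factor by which one subtype of small cell lung cancer is named, averaged 80.8 ± 5.74 in pRB+ and 104 ± 8.04 in pRB- libraries (-0.36 ± 0.08, adjusted p = 0.014), also without overlap. POU4F2, LHX2, OTX2, POU3F2, TCF12 and FOXA1 fell by 0.21 to 0.51. SCRT1, a neuronal zinc finger repressor, rose, with 8.56, 8.43, 9.39 and 8.43 in pRB+ against 4.47, 4.53, 5.78 and 5.80 in pRB- libraries (0.67 ± 0.07, adjusted p = 0.00613), as did SOX12 (0.35 ± 0.09). INSM1 averaged 13.9 ± 2.52 in pRB+ and 16.6 ± 2.97 in pRB- libraries and did not pass. NEUROD4, POU4F2 and SCRT1 passed in all 8 fits with 1 library left out and NEUROD1 in 6, while the count of 8 became 3 without pRB+ vehicle 1, 4 without pRB+ vehicle 2 or pRB+ AZD2811 1, 2 without pRB- vehicle 1, and 5 without pRB- vehicle 2 or pRB- AZD2811 1.

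Among genes of the mature neuron, more receptors and cytoskeletal genes were called as rising than as falling. Neurotransmitter receptors rose in 5 of 27 tested and none fell. CHRNA3, CHRNB4 and CHRNB2, subunits of nicotinic acetylcholine receptors, were among them, and CHRNA3 read 32.8, 29.4, 44.2 and 25.6 scaled FPKM in pRB+ against 17.7, 14.7, 25.5 and 18.4 in pRB- libraries (0.76 ± 0.16, adjusted p = 0.0143). Its lowest pRB+ value, 25.6, was just above its highest pRB- value, 25.5. CHRNB2 averaged 6.45 ± 0.77 in pRB+ and 4.48 ± 0.46 in pRB- libraries (0.44 ± 0.08, adjusted p = 0.0107) and CHRNB4, whose arms overlapped, 6.04 ± 0.95 in pRB+ and 3.82 ± 0.96 in pRB-. Neuronal cytoskeleton genes rose in 6 of 39 and 1, TUBG1, fell. The direction was less clear beyond the calls, as the median log2 difference of the 39 was 0.02. Without overlap between the arms, 6 of the 39 were higher in pRB+ libraries and 5 lower, against 11.0% and 11.5% of all genes. INA, an intermediate filament protein of neurons, averaged 27.2 ± 3.09 in pRB+ and 19.9 ± 1.28 in pRB- libraries (0.42 ± 0.07), MAP2 of dendrites 6.44 ± 0.50 in pRB+ and 4.61 ± 0.77 in pRB-, and TUBB3, the neuronal tubulin, 87.1 ± 6.54 in pRB+ and 70.8 ± 7.69 in pRB-. VIM, the intermediate filament protein of non-neuroendocrine cells, averaged 28.5 ± 1.70 in pRB+ and 37.8 ± 4.27 in pRB- libraries (-0.39 ± 0.08, adjusted p = 0.0139). The other 3 markers of non-neuroendocrine lines did not pass or were too low to test: YAP1 read 1.35 to 1.45 scaled FPKM in pRB+ and 1.12 to 1.42 in pRB- libraries, CD44 0.622 to 1.01 in pRB+ and 0.863 to 1.29 in pRB-, and POU2F3 0 to 0.0213 in pRB+ and 0 to 0.00954 in pRB-. The receptor count became 1 without pRB+ vehicle 1 or pRB- vehicle 1, 2 without pRB+ vehicle 2 or pRB+ AZD2811 1 and 3 without pRB- vehicle 2. The cytoskeleton count became 1 without pRB+ vehicle 1, 3 without pRB+ vehicle 2 and 2 without pRB+ AZD2811 1 or pRB- vehicle 1. CHRNB2 and INA passed in all 8 fits.

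Of the vesicle machinery, SYN2, which tethers synaptic vesicles, read 27.4, 17.8, 26.0 and 17.1 scaled FPKM in pRB+ against 10.7, 10.0, 12.7 and 11.3 in pRB- libraries (0.90 ± 0.15, adjusted p = 0.00763), and the other 35 tested members of the synaptic vesicle list beside SNAP25 gave no rise and 1 fall. Secretory granule genes gave 2 rises and 1 fall in 17. CHGA, a granule protein gene, was higher, at 64.3 to 71.8 in pRB+ against 41.8 to 55.2 in pRB- libraries. The chaperone SCG5 rose to 4.25 ± 0.75 in pRB+ against 2.36 ± 0.48 in pRB- libraries and the prohormone convertase PCSK1 fell to 0.887 ± 0.18 in pRB+ against 1.45 ± 0.16 in pRB-. PCSK1 averaged below the filter of 1 in pRB+ libraries, so it was tested only through its pRB- level. CACNA1B, the N-type calcium channel, averaged 4.77 ± 0.48 in pRB+ and 2.95 ± 0.48 in pRB- libraries (0.55 ± 0.08, adjusted p = 0.00687), and GAP43 of growth cones 7.80 ± 0.66 in pRB+ and 5.08 ± 0.54 in pRB- (0.53 ± 0.07, adjusted p = 0.00613). Of 47 axon guidance genes 1, GAP43, rose and 5 fell (NRP2, EFNA4, SEMA4D, PLXND1 and UNC5A), near the 8.77% of all genes that fell, a count that was 0 without pRB+ vehicle 1 or pRB- vehicle 1, 1 without pRB+ AZD2811 1, 2 without pRB- vehicle 2 and 3 without pRB- AZD2811 1. The adhesion molecules L1CAM and NRCAM rose by 0.30 and 0.27. SYN2, SNAP25, CHGA, CACNA1B and GAP43 passed in all 8 fits with 1 library left out.

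**Figure D5:**
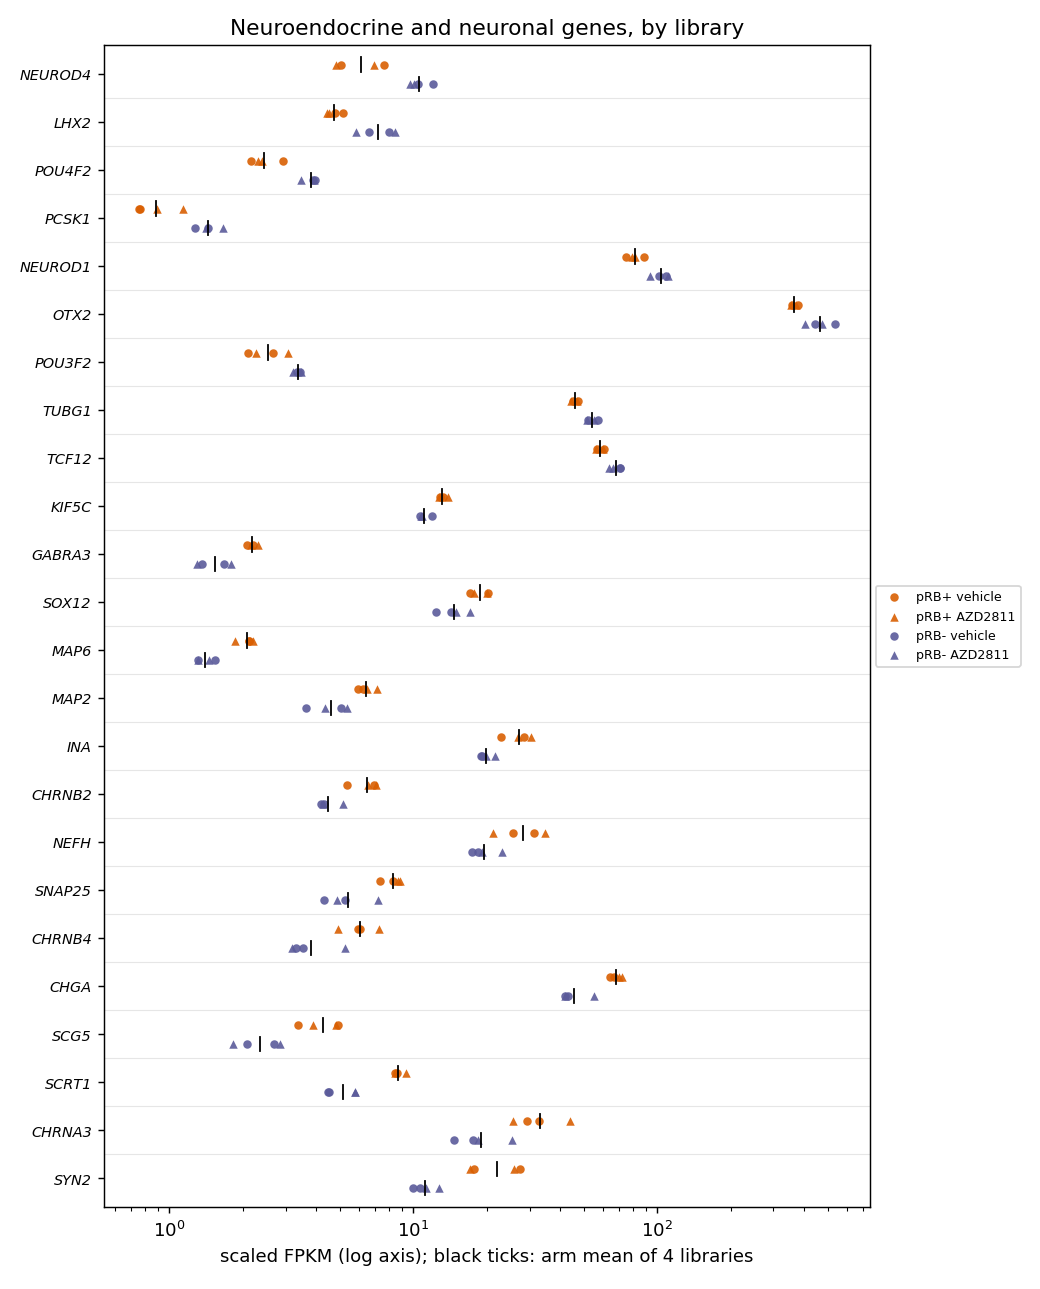
Scaled FPKM (log axis) of 24 neural genes in each of the 8 libraries, with pRB+ in orange, pRB- in purple, circles for vehicle, triangles for AZD2811 and black ticks for the arm means. The 24 are the called genes with the smallest p in the transcription factor, granule, receptor, vesicle and cytoskeleton lists. Being chosen by their calls, they do not stand for these lists at large. The transcription factors NEUROD4, NEUROD1 and OTX2 lie lower in pRB+ libraries, whereas SCRT1, SYN2 and CHRNA3 lie higher.

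Pathways of cell fate showed calls in both directions. Notch genes gave 3 rises and 3 falls in 24 (12.5% each, against 8.17% and 8.77% of all genes). Both counts were 0 without pRB- vehicle 1. The inhibitory ligand DLL3, a surface marker of neuroendocrine tumours, averaged 50.4 ± 4.53 in pRB+ and 39.8 ± 2.76 in pRB- libraries (0.33 ± 0.08, adjusted p = 0.0203), JAG2 4.68 ± 0.42 in pRB+ and 3.41 ± 0.21 in pRB-, and HES6, 152 ± 13.8 in pRB+ and 216 ± 38.9 in pRB-. HES1, the canonical Notch target, averaged 1.54 ± 0.45 in pRB+ and 1.02 ± 0.28 in pRB- and did not pass. Wnt genes fell in 4 of 31, or 12.9% (KREMEN1, LGR4, WNT11 and TCF7L1), and 8 were lower without overlap, against 11.5% of all genes. The 4 became 1 without pRB+ vehicle 1, pRB- vehicle 1 or pRB- vehicle 2 and 2 without pRB+ AZD2811 1 or pRB- AZD2811 1. The 1 rise was TMEM88, an inhibitor of Wnt signalling, with 2.51, 2.10, 4.13 and 2.54 scaled FPKM in pRB+ against 0.713, 1.00, 0.774 and 1.35 in pRB- libraries (0.95 ± 0.14, adjusted p = 0.00649). Primary cilium and Hedgehog genes rose in 6 of 51, where 8.17% of all genes rose, and 1, WDR34, fell. The rises were led by TCTN1 of the transition zone (0.51 ± 0.08, adjusted p = 0.00687) and the intraflagellar transport gene IFT88 (0.52 ± 0.10). The 6 became 2 without pRB+ vehicle 1, pRB+ vehicle 2 or pRB+ AZD2811 1, 1 without pRB- vehicle 1 and 3 without pRB- vehicle 2. TMEM88 and TCTN1 passed in all 8 fits, but TMEM88 averaged 0.959 in pRB- libraries, below the filter of 1, and was tested only through its pRB+ level.

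Of the MYC network 3 of 24 genes rose and 3 fell, in a list that also holds the DREAM repressor components. MAX, the shared partner of the MYC and MXD proteins, read 17.2, 13.2, 20.1 and 16.1 scaled FPKM in pRB+ against 9.53, 9.91, 10.4 and 12.1 in pRB- libraries (0.61 ± 0.09, adjusted p = 0.00712). The MYC antagonist MXD4 rose to 7.97 ± 1.00 in pRB+ against 5.43 ± 0.29 in pRB- libraries and MNT to 9.91 ± 0.63 in pRB+ against 8.19 ± 0.53 in pRB-. Another antagonist, MXD3, fell to 6.65 ± 1.01 in pRB+ against 11.9 ± 0.785 in pRB- (-0.76 ± 0.09, adjusted p = 0.00613), MYCL fell to 14.8 ± 1.53 in pRB+ against 20.6 ± 1.49 in pRB-, and MYCN, at low levels, to 0.915 ± 0.11 in pRB+ against 1.34 ± 0.21 in pRB-. MYC itself averaged 394 ± 37.0 in pRB+ and 325 ± 34.3 in pRB- libraries and did not pass (0.28 ± 0.09, adjusted p = 0.0605). MAX, MXD3, MXD4 and MYCL passed in all 8 fits with 1 library left out and MNT in 4. MYCN averaged below the filter of 1 in pRB+ libraries, so it was tested only through its pRB- level.

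Polycomb and DNA methylation genes fell in 10 of 48 and rose in 3. UHRF2, a reader of hydroxymethylated DNA, averaged 7.36 ± 0.37 in pRB+ and 10.4 ± 1.31 in pRB- libraries (-0.44 ± 0.09, adjusted p = 0.0109), and EZH1 and EZH2, the methyltransferases of histone H3, fell by 0.29 and 0.22. MBTD1, a methyl-lysine reader, moved the other way, with 7.76, 6.53, 7.97 and 6.88 scaled FPKM in pRB+ against 2.41, 3.65, 3.01 and 4.34 in pRB- libraries (0.94 ± 0.12, adjusted p = 0.00613). The 10 falls became 1 without pRB+ vehicle 1, 3 without pRB+ vehicle 2 or pRB- vehicle 2, 2 without pRB+ AZD2811 1, 6 without pRB+ AZD2811 2, 0 without pRB- vehicle 1 and 5 without pRB- AZD2811 1, whereas MBTD1 passed in all 8. Of 13 HOX genes 4 fell and none rose, with HOXC4, HOXC10 and HOXD13 falling by 0.25 to 0.33, a count that was 0 without pRB+ vehicle 1, pRB+ AZD2811 1 or pRB- vehicle 1 and 2 without pRB- vehicle 2.

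SR and hnRNP splicing factors rose in 5 of 55 and fell in 4, near the shares of all genes (8.17% rose and 8.77% fell). The 5 and the 4 each became 2 without pRB+ vehicle 1, pRB+ AZD2811 1 or pRB- vehicle 1, as did the 4 without pRB- vehicle 2. HNRNPM read 98.4, 71.0, 94.6 and 78.2 scaled FPKM in pRB+ against 46.3, 49.6, 55.1 and 60.7 in pRB- libraries (0.68 ± 0.11, adjusted p = 0.00717), and SRSF4 40.2, 44.7, 38.3 and 42.6 in pRB+ against 69.3, 58.6, 59.1 and 53.2 in pRB- (-0.52 ± 0.08, adjusted p = 0.00676), both with the arms apart and passing in all 8 fits with 1 library left out. SFPQ, a paraspeckle protein, averaged 114 ± 19.9 in pRB+ and 61.7 ± 10.5 in pRB- libraries (0.88 ± 0.12, adjusted p = 0.00613), and PCF11, which acts in transcript termination, 2.86 ± 0.65 in pRB+ and 1.11 ± 0.32 in pRB- (0.87 ± 0.12, adjusted p = 0.00613). Nuclear pore and transport genes rose in 7 of 54 and none fell. NUP54 of the central channel averaged 14.5 ± 1.09 in pRB+ and 9.94 ± 1.14 in pRB- libraries and POM121 of the pore membrane 12.1 ± 1.51 in pRB+ and 8.06 ± 1.04 in pRB-, both passing in all 8 fits, while the count of 7 became 2 without pRB+ vehicle 1, pRB+ AZD2811 1 or pRB- vehicle 1 and 4 without pRB- vehicle 2 or pRB- AZD2811 1.

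The largest gene family examined, the genes whose symbols start with ZNF or ZFP, rose in 74 of 403 and fell in 18, with a median log2 difference of 0.08. Most of them code for zinc finger proteins, many of which repress transposable elements. ZNF804A, linked to neuronal development, had 2.59, 1.69, 2.69 and 2.48 scaled FPKM in pRB+ against 0.313, 0.580, 0.826 and 1.28 in pRB- libraries (0.96 ± 0.12, adjusted p = 0.00613). ZNF594 (2.57 ± 0.67 in pRB+ and 0.980 ± 0.35 in pRB- libraries), ZNF778 (1.88 ± 0.20 in pRB+ and 0.916 ± 0.19 in pRB-) and ZNF610 (1.58 ± 0.12 in pRB+ and 0.801 ± 0.06 in pRB-) rose at levels near the filter on low values, and ZNF585A fell to 7.34 ± 0.91 in pRB+ against 10.9 ± 1.22 in pRB-. The 74 rises became 21 without pRB+ vehicle 1, 27 without pRB+ AZD2811 1, 18 without pRB- vehicle 1, 47 without pRB- vehicle 2 and 9 in the 5 libraries low in non-polyadenylated RNA. The 18 falls became 3 without pRB+ vehicle 1 or pRB- vehicle 1, 11 without pRB+ vehicle 2 and 4 without pRB+ AZD2811 1. ZNF804A, ZNF594 and ZNF778 passed in all 8 fits, but each averaged below the filter of 1 in pRB- libraries and was tested only through its pRB+ level. Transcripts named as antisense rose in 17 of 126 and fell in 11, and since the counting is not stated to use strand, reads of a gene and its antisense partner cannot be told apart.

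Several genes with the largest differences fall outside the groups described so far. NCOA5, a nuclear receptor coregulator, read 7.13, 5.33, 7.75 and 5.92 scaled FPKM in pRB+ against 1.17, 2.21, 2.06 and 3.49 in pRB- libraries (1.26 ± 0.17, adjusted p = 0.00613), the largest rise after RB1. TRAK2, an adaptor that carries mitochondria along microtubules, averaged 7.39 ± 1.29 in pRB+ and 3.30 ± 0.82 in pRB- libraries (0.97 ± 0.12), and HOMEZ, a homeodomain and leucine zipper gene, 16.2 ± 1.35 in pRB+ and 8.84 ± 2.34 in pRB- (0.83 ± 0.13). TAS1R3, a taste receptor subunit, averaged 5.54 ± 1.69 in pRB+ and 2.2 ± 0.36 in pRB- libraries, and RDM1, an RNA-binding gene linked to DNA repair, 4.82 ± 1.33 in pRB+ and 9.85 ± 1.49 in pRB-. These 5 passed in all 8 fits with 1 library left out. TMX2-CTNND1 and TGIF2-C20orf24 are readthrough names and SRGAP2B is 1 of several near-identical copies, so their values (log2 differences of 0.78, -1.21 and -0.79) are uncertain, because fragments can be split among the overlapping or copied genes.

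Over all genes tested 8.17% rose and 8.77% fell, and many of the list counts that follow lay near or below these shares. Others lay above them, among them falls of polyamine (23.1%), telomere (18.8%), interferon (17.6%) and potassium channel genes (15.6%). Rises of peroxisome (18.2%), serine and folate (17.6%) and TMEM genes (14.7%) did too. Without pRB- vehicle 1 the TMEM rises became 9 and each of the other counts with a share given here became 0. Of 20 integrated stress response genes 1, SLC6A9, rose (0.48 ± 0.13), and of 36 genes of endoplasmic reticulum folding 2 rose and 1 fell. Heat shock genes gave 2 rises and 4 falls in 38, interferon response genes 3 falls in 17 (IRF7, BST2 and IFITM3), NF-kappa B genes 2 falls in 21, and TGF-beta and BMP genes 2 falls in 34. NRF2 and glutathione genes fell in 2 of 30, and of 17 circadian clock genes 1, NFIL3, fell. Autophagy and lysosome genes went both ways, with 3 rises and 4 falls in 55, as did peroxisome genes, with 4 rises and 3 falls in 22. The serine and folate list gave 3 rises in 17 (MTRR, CBS and MAT2A), mitochondrial import and dynamics genes 4 rises in 38 (TRAK2, TIMM8B, TIMM21 and TIMM23), and purine and pyrimidine genes 2 rises and 3 falls in 21. Polyamine genes fell in 3 of 13, extracellular matrix and integrin genes in 3 of 24, RAB GTPases in 6 of 58 with 1 rise, and potassium channels in 5 of 32 with 1 rise. Chromatin remodelling subunits gave 2 rises and 2 falls in 44, histone methyl and acetyl enzymes 3 rises and 5 falls in 64, telomere genes 1 rise and 3 falls in 16, and Hippo genes 1 rise and 1 fall in 23. Of the families defined by symbol, TMEM genes gave 24 rises (4 in the 5 libraries low in non-polyadenylated RNA) and 14 falls in 163, F-box genes 5 rises and 4 falls in 48, LINC genes 5 rises and 6 falls in 64, tripartite motif genes 1 rise and 3 falls in 34, GPR and ADGR genes 2 rises and 3 falls in 27, ubiquitin-specific proteases 1 rise and 2 falls in 44, and small nucleolar RNA host genes 2 rises and 2 falls in 16. None of 3 antigen presentation, 5 protocadherin and 1 keratin genes tested was called by limma or fell below 0.05 before adjustment. Cell cycle genes, set apart here, fell in 114 of 203 (60 in those 5 libraries) and rose in 3: RB1, E2F3 and SKA3.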

How the data were processed

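RNA was sequenced from 8 bulk cultures, 2 libraries in each of 4 groups, by a stranded total RNA protocol, per the labels' protocols. The authors deposited 1 table of FPKM for all libraries, whose values are not whole although its sheet name speaks of counts. The tools STAR 2.5.1b and Cufflinks 2.2.1 and the build hg19 are named in the submitters' processing notes. The annotation and the use of strand in counting are not given in the sources used here.

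Of 25365 table entries, 28 whose names had become dates were dropped, and 2083 histone, small nucleolar, small nuclear and microRNA genes were set aside. FPKM were rescaled by a trimmed mean of log ratios, leaving out 30% of ratios and 5% of levels at each end, and genes averaging at least 1 were kept. limma 3.58.1 in R 4.3.3 fitted log2(scaled FPKM + 1) with an intensity trend, with pRB and AZD2811 as additive terms and Benjamini-Hochberg adjustment over 11693 genes. The fit was tested on simulated data with noise drawn separately for each gene and library. That test held no shift shared by the genes of a library, so it does not bear on the dependence on single libraries. No count model was used, and depth was estimated from FPKM steps. Symbols were matched to RefSeq names for 24119 entries, and promoter windows are RefSeq's first per symbol in GRCh38.p14. Genes were named by rule: RB1, the 15 largest rises and 15 largest falls among called genes without overlap between arms, and up to 5 members of each list with the smallest p. Others named were chosen after their values were seen. The gene lists and members were chosen with earlier results of these data known. Alternatives covered scaling, filter, pseudocount, fit, gene set and libraries. Results for some genes are not reported here.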

Additional observations from a re-analysis of the deposited data

Results flagged for a closer look

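In 1 of 62 arms of 4 libraries checked, those of RB1 and of the 30 genes with the largest changes, 1 library stood far from the others. SRGAP2B read 2.00 scaled FPKM in pRB+ AZD2811 1, against 3.50, 3.58 and 3.74 in the other pRB+ libraries, and this gap was 0.862 of the arm's range, above Dixon's critical value for 4 samples. Chance gives such a value in about 1 of 20 groups. SRGAP2B is 1 of several near-identical gene copies, among which fragments can be split.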

How the results depend on the processing

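With all 8 libraries 1980 genes were called, 13 cholesterol enzymes fell and 26 nucleolar factors rose. These 3 counts were 5, 0 and 0 on FPKM as deposited, where 2 of the 5 calls were shared and 71 genes had an unadjusted p under 0.05, 1092, 8 and 15 without a filter, 1351, 8 and 20 with small RNA and histone genes kept, 673, 9 and 7 in vehicle libraries alone and 1, 0 and 0 in AZD2811 libraries alone (1162 genes at an unadjusted p under 0.05). In the 5 libraries with RMRP below 1000, an alternative chosen after seeing the data, they were 386, 2 and 7. With a replicate block they were 2698, 14 and 34, and all 1980 calls were shared. Same-numbered libraries deviated with correlations of -0.24 to 0.58 over 6 pairs, so the numbers were not taken to pair the samples. With 1 library left out the counts ranged from 479 to 2620, 6 to 14 and 8 to 30, on fewer samples. The cause of the other changes was not tested. Median-ratio scaling, a pseudocount of 0.1, a fit of 4 group means, a term for the RMRP-rich libraries and robust empirical Bayes kept the 3 counts within 1.5 times (1385 to 2376, 11 to 13 and 18 to 33). The AZD2811-dependent effect, with 0 calls, gave 3 as deposited, 2 with small RNA and histone genes kept, and 0 to 2 with 1 library left out. None of the 305 genes followed reversed its sign as a called gene. The median log2 difference of all genes was -0.01 after scaling and -0.03 as deposited. Scaling factors were 0.454 to 0.770 in the RMRP-rich libraries and 1.29 to 1.33 in the others. The median log2 differences moved less than the counts: for cholesterol enzymes -0.32 with all 8 scaled libraries, -0.34 as deposited and -0.27 under AZD2811 alone, and for nucleolar factors 0.21, 0.19 and 0.21. Levels near 1 FPKM are limited by counting error.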
